A study of Mus musculus with 5 samples.

Results

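Expression of 10 genes for actin regulators and S100 proteins was followed in 4 derivatives of the mouse plasma cell line AxJ and in A20, which the labels call a memory B cell line. The genes were Tmsb4x, Tmsb10, Pfn1, Cfl1, Was, Coro1a, Lcp1, Lsp1, S100a4 and S100a6, out of 8251 genes with their own probe set on the array. They had 12 of the 12488 probe sets. Of the 10 genes, 3 (Tmsb4x, S100a4 and S100a6) were picked because clone B5 alone among the AxJ lines expressed them, so their levels in the AxJ lines are given as a description with no test. The other 7 were not picked on that pattern.

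The AxJ lines were stably transfected with empty vector, with a construct for the RNA-binding protein hnRNP-H, or with one for its relative hnRNP-F (subclones B5 and D6), and all 4 grew in 5% fetal calf serum with 1 mg/ml G418, the selecting antibiotic. The medium listed for A20 also held 5% serum but no G418. Each line was measured on 1 Affymetrix array of polyadenylated RNA, and the hnRNP-F and hnRNP-H lines are clones picked by western blot, so a difference between lines cannot be told apart from a difference between clones. No repeat culture of a line is described. The p-values rest on the spread between empty vector and the hnRNP-H line and between clones B5 and D6. That spread mixes construct, clone and technical differences and does not measure variation between repeat cultures. No probe set was named Hnrnpf, and Hnrnph1 read 1447 with empty vector, 1058 in the hnRNP-H line, 726 in B5, 985 in D6 and 1520 in A20, which leaves neither transgene checked. Levels are quantile-normalised intensities, a log2 difference is taken on log2(intensity + 6.55), and 9108 probe sets whose highest level exceeded 21.8 were kept.

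Lines of the labelled types carried their own markers. Of 14 kept B cell marker genes, 11 rose and none fell in A20 against the 2 AxJ controls, the lines with empty vector or hnRNP-H, and of 10 plasma cell marker genes 7 fell and none rose (limma, adjusted p under 0.05). Over all kept probe sets 2.89% rose and 3% fell. Cd22, Spib, Bcl6, Cd72 and H2-Aa were kept through their A20 level alone, which favours a rise. Likewise 5 of the plasma cell genes lay below the filter level in A20. Signal at the 5' end of Gapdh over that at its 3' end, which falls where RNA is degraded or labelled short, was 0.212 with empty vector, 0.181 in B5, 0.384 in A20, 0.683 in D6 and 0.866 in the hnRNP-H line. Median deposited intensities ran from 33.9 to 41.7.

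Actin filaments grow and shrink by exchange with a pool of monomers. Thymosins hold monomers in reserve, profilin hands them to growing ends, and cofilin cuts old filaments. The Was protein switches on the Arp2/3 complex, which starts filament branches, and coronin, L-plastin (Lcp1) and Lsp1 bind filaments in cells of the blood lineages. S100 proteins are small calcium sensors, and S100a4 and S100a6 are known to bind cytoskeletal partners, S100a4 the heavy chain of non-muscle myosin.

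Because Tmsb4x, S100a4 and S100a6 were high together in B5, the 250 bases before each start site are printed from RefSeq (GRCm38.p6, 5′ to 3′ on the strand of the gene). Capitals mark a match to a searched motif.
Tmsb4x, chrX:167209219-167209468, minus strand: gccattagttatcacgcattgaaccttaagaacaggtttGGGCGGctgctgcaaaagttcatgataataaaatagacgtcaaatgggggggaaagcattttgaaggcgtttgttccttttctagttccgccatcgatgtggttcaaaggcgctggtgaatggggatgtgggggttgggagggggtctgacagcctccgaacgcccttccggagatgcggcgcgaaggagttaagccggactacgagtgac
S100a4, chr3:90603520-90603769, plus strand: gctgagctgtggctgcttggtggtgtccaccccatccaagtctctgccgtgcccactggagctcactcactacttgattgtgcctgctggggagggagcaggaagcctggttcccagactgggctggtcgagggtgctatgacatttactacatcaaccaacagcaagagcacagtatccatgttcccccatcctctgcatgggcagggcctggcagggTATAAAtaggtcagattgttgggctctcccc
S100a6, chr3:90612644-90612893, plus strand: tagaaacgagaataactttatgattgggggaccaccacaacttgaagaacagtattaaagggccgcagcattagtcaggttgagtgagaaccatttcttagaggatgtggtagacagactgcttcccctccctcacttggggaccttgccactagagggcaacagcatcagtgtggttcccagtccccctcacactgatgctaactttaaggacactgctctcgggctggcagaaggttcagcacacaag
The motifs were TATAAA (the TATA box), TGANTCA (AP-1), GGGCGG (Sp1) and the CArG box (the site of the actin gene regulator Srf), of which a CArG box can contain TATAAA, searched on both strands from 250 bases before to 50 after the start. The S100a4 promoter held TATAAA beginning at base -31, counted from the start site, a motif found in 13.6% of 32851 promoters of the same length. Tmsb4x held GGGCGG at base -211, found in 35.7%. S100a6 held none of the 4 motifs, and no copy of TGANTCA (7.81% of promoters) or of the CArG box (1.63%) lay in these 3 windows. In that window of 300 bases Tmsb4x had 20 CpG dinucleotides, S100a6 had 6 and S100a4 had 2, against a median of 7 over all promoters. Of the 10 genes, 9 had an entry, and none of their windows held the CArG box.

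**Figure D1:**
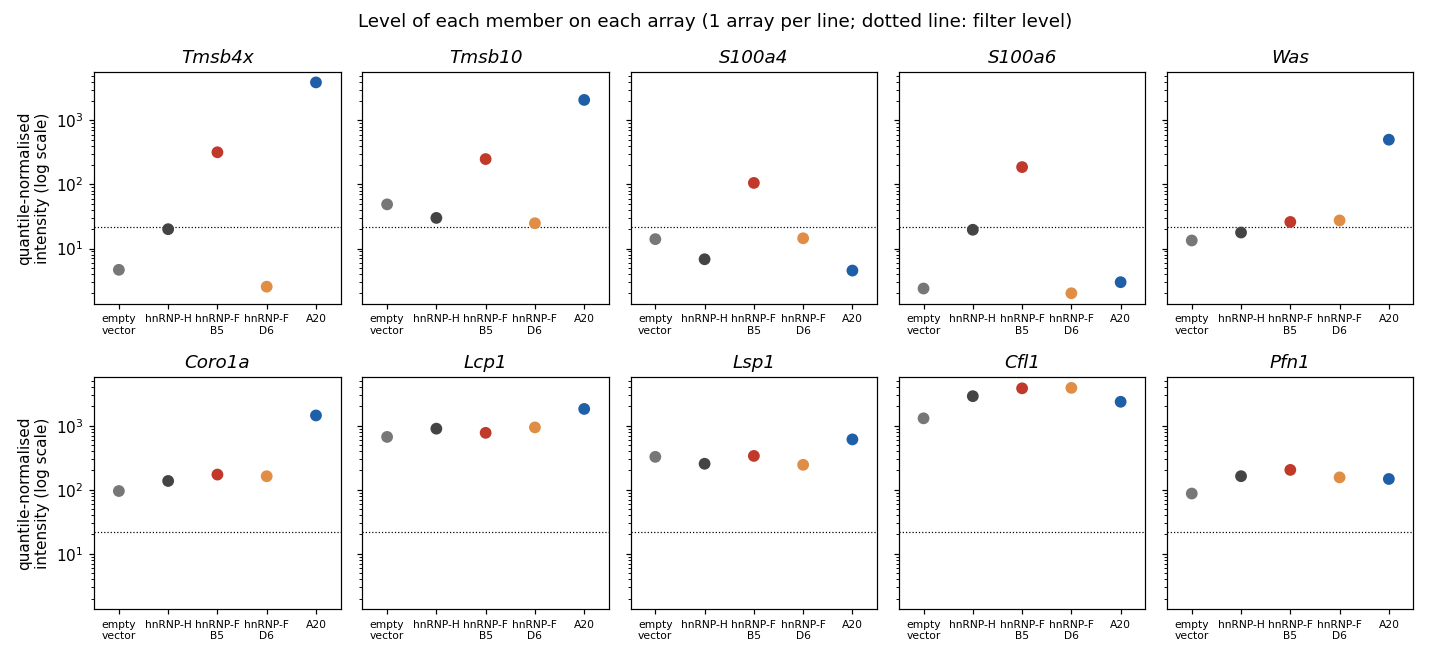
Quantile-normalised intensity (log axis) of the 10 genes in each line, 1 array per point, with the filter level of 21.8 dotted. Tmsb4x, Tmsb10, S100a4 and S100a6 stand high in B5 among the AxJ lines, while Tmsb4x, Tmsb10, Was and Coro1a are highest in A20.

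Tmsb4x encodes thymosin beta 4, the main peptide that holds actin monomers. It read 4.65 with empty vector, 20.03 in the hnRNP-H line, 318 in B5, 2.53 in D6 and 3919 in A20. The 3 other AxJ lines lay below the filter level, B5 lay far above them and A20 far above B5. In deposited intensities B5 was 16.4 times the highest of the other AxJ lines and A20 was 10.95 times B5. A20 lay above the AxJ controls by 7.83 on the log2 scale (SE 1.63), given with no test because the low level of the controls was part of how the gene was picked.

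Tmsb10, the close relative thymosin beta 10, was not picked on B5 but had a like order. Its levels were 48.9 with empty vector, 30.03 in the hnRNP-H line, 249 in B5, 24.8 in D6 and 2088 in A20. B5 again stood alone among the AxJ lines, at 4.59 times the highest of the others in deposited intensities, and no AxJ line reached A20. Against the AxJ controls A20 was higher by 5.54 (SE 0.99, limma adjusted p = 0.0166). The call was lost when the empty vector array (limma adjusted p = 0.0816) or the hnRNP-H array (0.0773) was left out, with dim probe sets kept (0.0565) and with no intensity trend in the fit (0.112).

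S100a4 parted from the thymosins in A20. It read 14.01 with empty vector, 6.80 in the hnRNP-H line, 106 in B5, 14.5 in D6 and 4.52 in A20. Only B5 exceeded the filter level, at 5.86 times the highest other AxJ line in deposited intensities, and A20 was the lowest of all. S100a6, also called calcyclin, behaved alike, with 2.37 with empty vector, 19.6 in the hnRNP-H line, 187 in B5, 2.001 in D6 and 2.98 in A20. B5 was 9.60 times the next AxJ line, and A20 lay among the low lines. Both genes thus passed the filter through the B5 array alone, where Tmsb4x passed through B5 and A20. All 10 genes passed on at least 1 probe set, 11 of the 12 in all.

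On these differences of B5 from the highest other AxJ line, Tmsb4x ranked 3, S100a6 ranked 4, S100a4 ranked 8 and Tmsb10 ranked 14 of 9108 probe sets, with log2 differences of 3.61, 2.89, 2.42 and 2.21. In all, 148 probe sets (1.62%) were at least 2-fold higher in B5 than in each other AxJ line, and 4 of the 10 genes were among them. Nothing is read from that count, since 3 of the 4 were picked for it. Tmsb4x was also among the 3 probe sets (0.0329%) past 8-fold. With the filter level as the pseudocount the 148 became 48, and these 4 genes stayed past 2-fold, with differences from 1.81 (S100a4) to 3.02 (Tmsb4x). The other 6 genes had differences from -0.28 (Lcp1) to 0.31 (Pfn1), and B5 alone was not tested against the other lines. Among the 148 probe sets, 28 (18.9%) were also at least 2-fold higher in A20 than in each of empty vector, hnRNP-H and D6, as Tmsb4x and Tmsb10 were, and 120 were not, as for S100a4 and S100a6. Of all kept probe sets, 5.28% were at least 2-fold higher in A20 than in all 4 AxJ lines, a stricter limit. The share of all kept probe sets past the limit used for the 28 was not counted. B5 and A20 were set against the same 3 lines, so nothing is read from the 18.9%.

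**Figure D2:**
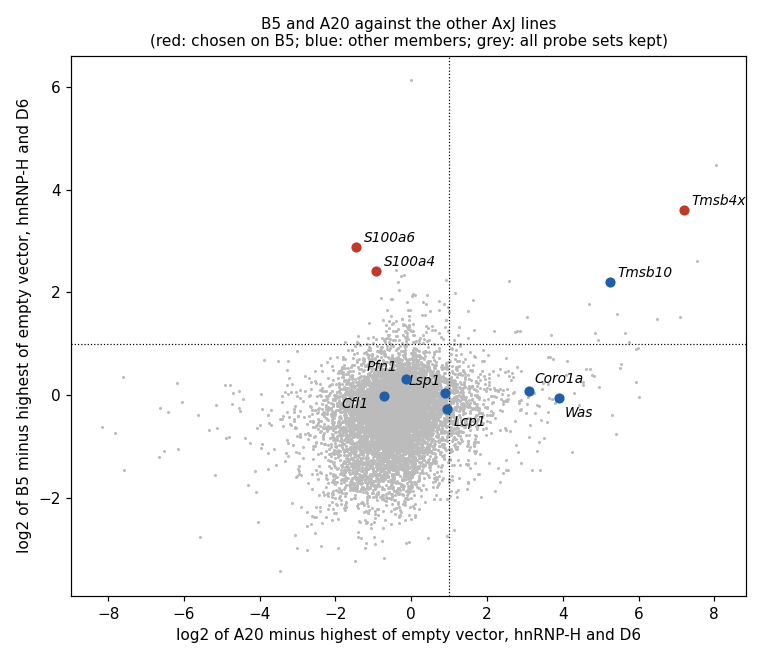
Each point is a probe set: the horizontal axis gives the log2 difference of A20, and the vertical axis that of B5, from the highest of empty vector, hnRNP-H and D6, with dotted lines at 2-fold. Tmsb4x and Tmsb10 lie to the upper right, S100a4 and S100a6 at the upper left, and Was and Coro1a are high in A20 without a rise in B5.

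S100a4 and S100a6 lie in one cluster of S100a genes on chromosome 3, with S100a5 the one annotated gene between them. S100a5 read 11.04 with empty vector, 29.1 in the hnRNP-H line, 47.5 in B5, 10.2 in D6 and 32.5 in A20. B5 was the highest line but within 2-fold of hnRNP-H. S100a3, on the other side of S100a4, read from 51.4 to 77.1 in the AxJ lines. S100a10, the partner of annexin A2, read 8.49 with empty vector, 19.5 in the hnRNP-H line, 69.0 in B5, 21.0 in D6 and 45.8 in A20. B5 was higher than each other AxJ line by 1.45 on the log2 scale there, but the dimmer second S100a10 probe set read 8.67 in B5 and 50.6 in D6. S100a1 and S100a13 were highest in B5 among the AxJ lines by less than 2-fold, S100a14 was level, and S100a9, a granulocyte protein, read 29.2 in empty vector and at most 8.67 elsewhere.

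**Figure D3:**
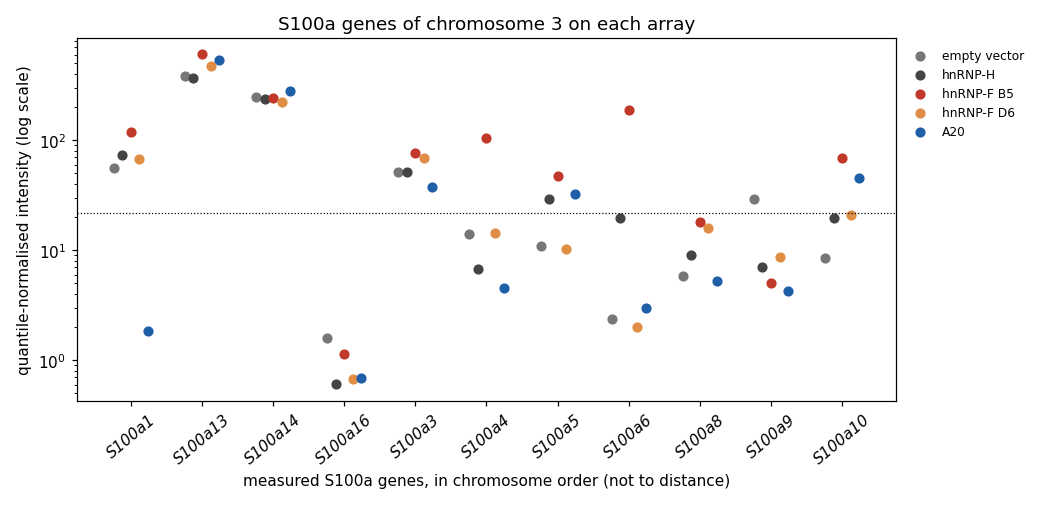
Quantile-normalised intensity (log axis) of the 11 measured S100a genes of chromosome 3 in chromosome order, 1 point per line, with the filter level of 21.8 dotted. S100a4 and S100a6 are above that level in B5 only, and S100a1 drops to 1.83 in A20.

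Some other genes of the same pathways stood high in B5. Of 84 kept genes on lists of actin regulators, S100 proteins, annexins and Srf cofactors that are not among the 10, 5 (5.95%) were at least 2-fold higher in B5 than in each other AxJ line, against 1.62% of all probe sets. They were Abi1, Anxa1, Anxa3, Elk1 and S100a10, named after their values were seen. Anxa1 and Anxa3 passed the filter on low values through the B5 array alone, so nothing is read from that share. Anxa1, a calcium-dependent membrane-binding protein, read 43.6 in B5 and at most 4.29 in the other AxJ lines, and its second probe set read 33.4 in B5 and at most 3.75 in those. The remaining Anxa1 probe set, below the filter level on every array, read 0.955 in B5 and 6.96 with empty vector. Anxa3 read 31.2 in B5 and at most 2.56. In the other direction 4 genes, Add1, Cfl2, Myh10 and Scin, were at least 2-fold lower in B5 than in each other AxJ line, where 1.76% of all probe sets were.

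Among the 20 probe sets with the largest B5 difference stood genes known from myeloid cells. Lyz2, the lysozyme of macrophages and granulocytes, read 46.9 in B5 and at most 4.22 in the other AxJ lines. Il1b read 56.1 against at most 5.80, Ccl9 97.2 against at most 10.04 and the signalling adaptor Tyrobp 44.9 against at most 7.003. On these probe sets Lyz2, Il1b, Ccl9 and Tyrobp passed the filter on low values through the B5 array alone. They were picked from a ranking on the B5 difference after it was seen, so nothing is read from their place in it. A second Lyz2 probe set, below the filter level on every array, read 1.10 in B5 and 3.79 in the hnRNP-H line. On the list of 10 myeloid markers, 1 of 9 kept genes (Lyz2) was at least 2-fold higher in B5 than in each other AxJ line and 1 (Mpo) at least 2-fold lower. Cd14 read 251 in B5 and at most 130 in the other AxJ lines, while Cd68 read 108 in B5 and 144 in D6. The summed level of that list was 2284 in B5, within the 2244 to 3090 of the other AxJ lines, with most of it from Ctss, and 4 of its 10 genes lay below the filter level in B5, Itgam and Adgre1 among them. Stromal markers summed to 656 in B5 and 475 to 582 in the other AxJ lines, T cell markers to 132 against 65.4 to 94.8, and the 2 erythroid and megakaryocyte markers to 83.7 against 62.9 to 136. None of these 3 lists had a kept gene 2-fold higher in B5 on the probe set used. A second Col1a1 probe set did pass 2-fold, with 22.2 in B5 and at most 5.46 in the other AxJ lines. Only 1 of 8 measured T cell markers was kept, so that list could show little. The globin gene Hbb-y, which is on none of the lists, stood among those 20 probe sets with 65.9 in B5 and at most 12.05 in the other AxJ lines. It too passed the filter through the B5 array alone. On the B cell list 2 of 14 genes were at least 2-fold higher in B5 than in each other AxJ line, Ltb with 141 against at most 42.8 and H2-Ab1 with 78.4 against at most 29.1. The Blk probe set used read 30.2 in B5 and 30.5 in D6. A second Blk probe set did pass 2-fold, with 30.4 in B5, at most 9.20 in the other AxJ lines and 97.9 in A20. The part of other cells in the B5 levels was not tested, and in bulk RNA a few cells with much of a transcript and many cells with a little cannot be told apart.

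B5 was also placed between the other AxJ lines and A20. Taking the mean of empty vector, hnRNP-H and D6 as 0% and A20 as 100%, B5 lay at 7.90% for Tmsb4x and 10.4% for Tmsb10. Over the 32 probe sets at least 16-fold higher in A20 than in each of those 3 lines, the median share was 1.97%, with quartiles of 1.45% and 3.79%, and 3 of them, Tmsb10 included, had a larger share than Tmsb4x. B5 was at least 2-fold higher than each other AxJ line for 12 of the 32 (37.5%), Tmsb4x and Tmsb10 among them, where 1.62% of all probe sets were. The 32 were chosen for a high A20 level over the same 3 lines that B5 is set against. Tmsb4x was also picked on B5, so nothing is read from that share. Of the 11 B cell markers that rose in A20, on the probe set used, 9 had a smaller share than Tmsb4x. They ran from 0.104% (H2-Aa) to 6.82% (Cd72), while Pax5 lay at 14.8% and H2-Ab1 at 25.5%. Tmsb4x was picked on its B5 level, so nothing is read from its place among these markers or the 32 probe sets. The immunoglobulin light chain gene Igkv6-23, which ranked 2 for its B5 difference, lay at 8.17%, above Tmsb4x here and below it on the deposited scale (8.65% against 8.89%) and under median scaling (7.41% against 7.61%). S100a4 and S100a6, low in A20, have no such share. The Gapdh ratio was lowest in B5 (0.181) and empty vector (0.212), and its part in the B5 levels was not tested.

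Genes whose pattern was most like the mean profile of Tmsb4x, S100a4 and S100a6 were sought among 115 named genes at least 2-fold higher in B5 than in each other AxJ line. The closest 8 by Pearson correlation over the 5 arrays were Cd93, Il12rb2, Tnfrsf8, Avpr2, Fxyd2, St8sia1, Sugp2 and Fermt2, with r from 0.968 to 0.992. Their B5 levels were between 23.0 and 40.6, close to the filter level, so the order among them rests on dim signals. Candidates and profile genes alike were picked for a high B5 level among the AxJ lines. A high r is thus partly set by that choice, and nothing is read from its size. The mean profile mixes unlike genes: Cd93, for example, had r = 0.821 with Tmsb4x and 0.560 with S100a4.

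A20 against the AxJ controls asked which of the other genes differ between a B cell line and plasma cell lines. Of the 7 genes tested, each on its brightest probe set, 3 rose and none fell. Over all 9108 kept probe sets 2.89% rose (263) and 3% fell (273). Under median scaling 358 rose and 190 fell, and the same number of the 7 genes passed. Their median log2 difference was 1.23, against -0.04 over all probe sets kept. A20 exceeded all 4 AxJ lines for 5 of the 7 genes, as for 26% of probe sets, and by at least 2-fold for the 3 that passed, as for 5.28%. A20 was measured once and is assumed in the fit to vary like the AxJ lines.

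Was, the switch for Arp2/3, read 13.3 with empty vector, 17.8 in the hnRNP-H line, 26.0 in B5, 27.4 in D6 and 500 in A20. Every AxJ line was near or below the filter level and far below A20. The difference from the controls was 4.53 (SE 0.48, limma adjusted p = 0.0015), and it ranged from 3.81 to 4.93 over the alternatives. Coro1a, coronin 1A of filament turnover in leukocytes, read 95.3 with empty vector, 137 in the hnRNP-H line, 172 in B5, 162 in D6 and 1443 in A20. A20 stood clear of all 4 AxJ lines, with a difference from the controls of 3.58 (SE 0.37, adjusted p = 0.0012). Both calls held under every alternative run.

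Lcp1, which bundles filaments, read 667 with empty vector, 897 in the hnRNP-H line, 773 in B5, 939 in D6 and 1824 in A20. A20 was above all AxJ lines, but the difference of 1.23 (SE 0.32) did not pass (limma adjusted p = 0.0661), and it passed without hnRNP-H (0.0449). The second Lcp1 probe set stayed below the filter level on every array. Lsp1, a filament-binding protein of lymphocytes, read 326 with empty vector, 254 in the hnRNP-H line, 337 in B5, 245 in D6 and 610 in A20. Again A20 lay above all AxJ lines without passing, with 1.07 (SE 0.36, adjusted p = 0.138), and a second probe set differed by 1.24 (SE 0.37, adjusted p = 0.0983) and passed without hnRNP-H (0.0493).

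Cfl1, the filament-severing cofilin, read 1302 with empty vector, 2886 in the hnRNP-H line, 3827 in B5, 3889 in D6 and 2359 in A20. Empty vector was the lowest line and A20 lay inside the AxJ range. The A20 difference of 0.28 (SE 0.44, limma adjusted p = 0.8) turned to -0.29 without empty vector and to -0.21 against all 4 AxJ lines. Pfn1, profilin, read 87.1 with empty vector, 163 in the hnRNP-H line, 204 in B5, 156 in D6 and 147 in A20. Empty vector was lowest here too, A20 overlapped the AxJ lines, and the difference of 0.29 (SE 0.45, adjusted p = 0.804) turned to -0.14 without empty vector. The empty vector array also had a low Gapdh ratio (0.212), whose part in these values was not tested.

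**Figure D4:**
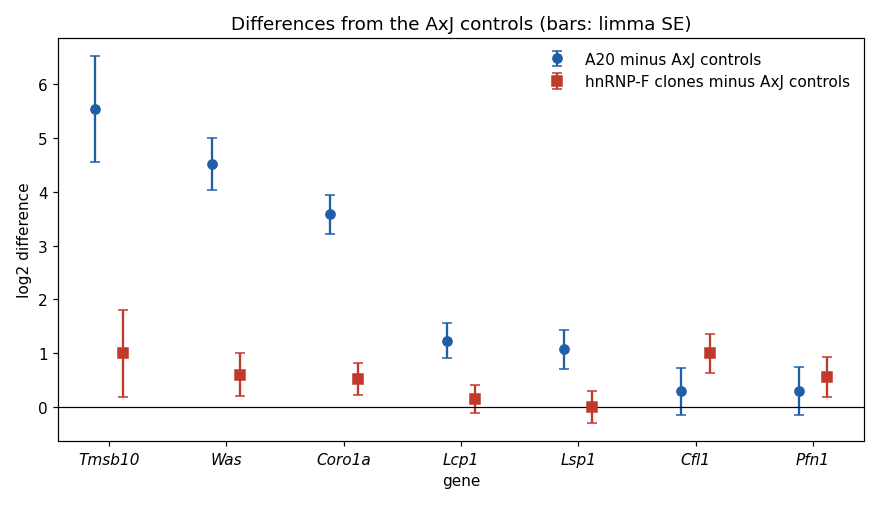
Log2 difference from the AxJ controls for the 7 tested genes, A20 (circles) and the hnRNP-F clones (squares), with limma standard errors as bars. Tmsb10, Was and Coro1a stand apart in A20 (5.54, 4.53 and 3.58), and no hnRNP-F difference exceeds 0.99.

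For the hnRNP-F clones against the same controls, none of the 7 genes passed, where 1 of 9108 probe sets (0.011%) rose and none fell. At an unadjusted p under 0.05, 526 probe sets (5.78%) stood out, among them Cfl1 with 0.99 (SE 0.36, limma adjusted p = 0.788) and the second Lsp1 probe set with 0.75 (SE 0.30). Both clones lay above both controls for Was, Coro1a and Cfl1 among the 7, where 18.2% of probe sets did. Was differed by 0.60 (SE 0.39), Pfn1 by 0.55 (SE 0.37), Coro1a by 0.52 (SE 0.30) and Lcp1 by 0.14 (SE 0.26). None of these reached the level of a call. Tmsb10 differed by 0.99 (SE 0.81) with B5 counted and by -0.52 with D6 alone. Likewise Tmsb4x differed by 1.65 (SE 1.33) and S100a6 by 1.41 (SE 1.29), given with no test, and with D6 alone by -0.93 and -0.84. S100a4 differed by 1.55 (SE 0.81) and with D6 alone by 0.34. D6 was lower than B5 by 5.16 on the log2 scale for Tmsb4x, by 4.498 for S100a6, by 3.03 for Tmsb10 and by 2.42 for S100a4, where 5.73% of probe sets were at least 2-fold lower. The other 6 genes differed between the clones by less than 2-fold, and none of the 10 was 2-fold higher in D6, where 6.23% of probe sets were.

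hnRNP-H against empty vector, 1 array a side and so without a test, exceeded 2-fold for Tmsb4x (1.25), S100a6 (1.55) and Cfl1 (1.15), where 9.97% of probe sets rose past that limit and 8.18% dropped past it. For Tmsb4x and S100a6 both lines lay below the filter level. None of the 10 genes was 2-fold lower.

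In A20, 6 of the 84 other kept genes of the pathway lists rose and 5 fell, a share of 13.1% against 5.88% of all probe sets, and their median log2 difference was 0.27 against -0.04. The 84 were counted on the brightest probe set of each gene and the 5.88% over every kept probe set, so the shares are not like for like. Of actin monomer binders, 1 of 3 rose, the profilin gene Pfn2 by 3.51 (SE 0.45, limma adjusted p = 0.00358). Of 11 genes of severing and turnover, Wdr1, a helper of cofilin, rose by 1.33 and Flii by 1.55. Among 15 genes of branching and nucleation, Wipf1, the partner that holds the Was protein stable, rose by 2.75 (SE 0.56, adjusted p = 0.0255) and the cortactin gene Cttn fell by 3.29 (SE 0.36, adjusted p = 0.00179), reading 225 and 212 in the controls and 16.4 in A20. The list had 13 of 15 genes above 0 and a median of 1.15. Its 5 kept Arp2/3 subunit genes, named after their values were seen, did not pass, with Arpc4 at 1.39, Arpc1a at 1.38, Actr3 at 1.15, Arpc2 at 0.64 and Arpc5 at -0.0077. The Wipf1 call was lost in 4 of 12 alternatives, with limma adjusted p up to 0.0986. A second, dim Cttn probe set differed by -0.92 without passing. The Diaph1 probe sets parted: the one used differed by 0.88 and another by 0.59 without passing, and a further one rose by 2.40 (limma adjusted p = 0.0212).

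Bundling and membrane-linking genes moved both ways. Of 14, Msn (moesin) rose by 2.08 (SE 0.40) and Actn4 by 1.84, and Rdx (radixin), a relative of moesin, fell by 3.74 (SE 0.48, limma adjusted p = 0.00358), reading 344 and 203 in the controls and 13.7 in A20. Ezr (ezrin), the third of that family and named after its value was seen, differed by -0.63 without passing. No capping gene of 5 passed, with Capzb at 0.88 and Capza2 at 0.41. Of 17 actin, myosin and tropomyosin genes the myosin light chain gene Myl12b fell by 1.75 (SE 0.28, adjusted p = 0.0109). The Actb probe sets parted: the one used differed by 0.50 without passing and a second fell by 1.39 (adjusted p = 0.0427), and the 3' control probe set for beta-actin reached 10938 in A20, above the 3670 and 7018 of the controls.

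In the S100 family 1 of 8 other genes passed, S100a1 with a fall of 3.08 (SE 0.52, adjusted p = 0.0139), and of 7 annexin genes Anxa5 fell by 2.09 (SE 0.35, adjusted p = 0.0131). None of 4 Srf cofactor genes passed, with Elk4 at -1.49 and Mrtfa at 0.82. Of the other named calls on these lists, those for Pfn2, Cttn and Rdx held in all 12 alternatives. That for Myl12b was lost in 1, those for Actn4, Anxa5 and S100a1 in 3, that for Flii in 4, that for Msn in 5 and that for Wdr1 in 6. In the hnRNP-F clones none of these 84 genes passed with limma, and by list 0 to 1 genes had an unadjusted p under 0.05.

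**Figure D5:**
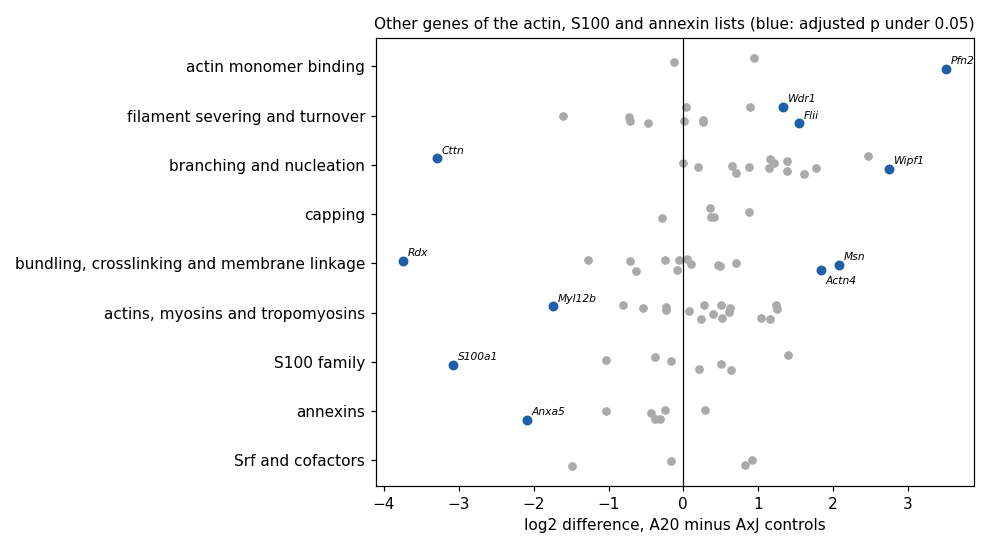
Log2 difference of A20 from the AxJ controls for the 84 other genes, 1 point per gene on the probe set used, by list, with those past the threshold in blue. Rises and falls mix within the branching and bundling lists, and the largest fall is Rdx at -3.74.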

How the data were processed

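Biotin-labelled polyadenylated RNA of 5 mouse cultures was hybridised to 1 Affymetrix array each. Each probe set has 1 intensity per array in the deposited table, on a linear scale. Per the deposited values, the authors had scaled the arrays to a trimmed mean of about 150.1. The array software and background step are not stated in any source used. The number of arrays limits the precision.

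Gene symbols are those of the 2016 platform annotation, brought up to date by gene ID. Of all probe sets, 10855 probe sets had 1 symbol, 396 several and 1237 none. A gene with more than 1 is represented by its brightest, by mean log2 value, while shares over all probe sets count every kept one. The 66 control probe sets were left out of tests. Intensities were quantile normalised, and the pseudocount of 6.55 and the filter level of 21.8 are the 20th and 40th percentiles of all values. The pseudocount understates changes of dim genes.

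Limma 3.58.1 in R 4.3.3 (lmFit, eBayes with an intensity trend) was fitted over 5 arrays with 3 coefficients (hnRNP-F clones, AxJ controls, A20), leaving 2 residual degrees of freedom. Two-sided p-values were adjusted by Benjamini-Hochberg over the 9108 kept probe sets, with a threshold of 0.05. The fit was also run on simulated data in which A20 varied like the other arrays, so that assumption was not tested. The genes and lists were chosen with earlier results of these data known. Named were the 10 genes, from each list up to 4 others past the threshold in A20 by smallest p (otherwise the 2 with the largest statistic), and the 8 of most like pattern. Alternatives covered pseudocount, filter, scaling, trend, 1 probe set per gene, grouping, a block by Gapdh ratio and each AxJ array left out. Promoters are from RefSeq. One further gene list is not reported here.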

Additional observations from a re-analysis of the deposited data

How the results depend on the processing

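Each line had 1 array, so the calls for A20 rest on the spread between 2 controls and 2 clones. Was and Coro1a passed under every alternative run. The count of tested genes past the threshold in A20 stayed between 2 and 3 of 7, but without hnRNP-H it held Was, Coro1a and Lcp1. The 536 calls over all probe sets became 309 with dim probe sets kept and 146 with no trend, and ran from 242 (without clone B5) to 614 (without hnRNP-H) with 1 array left out, 326 without empty vector and 254 without clone D6. Median scaling gave 358 higher and 190 lower in place of 263 and 273. The 11 calls among the 84 other pathway genes became 7 with dim probe sets kept, 3 with no trend, 7 when the empty vector array was left out, 5 without B5 and 6 without D6.

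For the hnRNP-F clones 1 call became 0 with dim probe sets kept or with no trend, and ran from 0 (without B5) to 3 (without D6). The Lsp1 difference of about 0 (-0.0031) was 0.017 under deposited and 0.030 under median scaling, and ran from -0.23 to 0.22 with 1 array left out, Lcp1 from -0.074 (without empty vector) to 0.35, and Tmsb10 from -0.52 (without B5) to 2.50. In A20, Cfl1 ran from -0.29 (without empty vector) to 0.85 and was -0.21 against all 4 AxJ arrays, and Pfn1 from -0.14 (without empty vector) to 0.71. The cause was not tested. With the pseudocount at the 40th percentile, 148 probe sets at least 2-fold higher in B5 became 48, 1089 past 2-fold between D6 and B5 became 375, and 1653 between hnRNP-H and empty vector became 772. The share of the A20 level in B5, an alternative chosen after seeing the data, was 8.89% (deposited) and 7.61% (median scaling) for Tmsb4x, and 10.9% and 9.33% for Tmsb10. No pairing by label was possible because the labels give the groups no shared replicate numbers. A block that paired clones with controls by their Gapdh ratio, a measured value, left 1 call for the hnRNP-F clones and 0 of the 7 genes.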
